A study of Mus musculus with 12 samples.

Results

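The 10 genes described here belong to the BCL2 family, the proteins that decide at the mitochondrial membrane whether a cell enters apoptosis. They were taken as a fixed list of symbols (Bcl2, Bcl2l1, Mcl1, Bax, Bak1, Bid, Bad, Bbc3, Pmaip1 and Bcl2l11), and every probe of the array whose RefSeq accession belongs to one of these symbols was kept, in all 4 genotypes. This gave 16 probes of the 41174 on the array, or 10 of the 17305 genes that have a named probe. Bcl2l1 has 3 probes, Bcl2, Mcl1, Bak1 and Bcl2l11 have 2 each, and the other members have 1. All 16 probes were well above background on all 12 arrays, so no member was lost to a low signal.

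Members of the family fall into groups that act on each other. The anti-apoptotic proteins BCL2, BCL-XL (the long product of Bcl2l1) and MCL1 hold the effectors BAX and BAK (Bak1) in check. When free, the effectors form pores in the outer mitochondrial membrane, cytochrome c leaves the mitochondria, and caspases are activated. The BH3-only proteins BID, BAD, PUMA (Bbc3), NOXA (Pmaip1) and BIM (Bcl2l11) report stress to this system, by binding the anti-apoptotic members or by activating the effectors. In pancreatic islets the family takes part in the loss of beta cells under cytokines, endoplasmic reticulum stress and high fatty acids or glucose. Much of its control acts on the proteins, through cleavage of BID, phosphorylation of BAD and rapid turnover of MCL1, and an array of RNA does not see this control.

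RNA of pancreatic islets was measured on 12 one-colour arrays (Agilent, Whole Mouse Genome, 4x44K), and each of 4 genotypes of mice had n = 3 arrays. The mice were on a mixed C57BL/6 x Sv129 background, fed chow and 4 weeks old by the labels (the study's text gives a slightly older age and only females). WT mice carry neither mutation. PPARγ2KO mice (PPARg2KO in the plots) lack PPARγ2, the isoform of the nuclear receptor PPARγ that is induced in fat and other tissues under nutrient excess. The ob/ob mice lack functional leptin and become obese, and the POKO mice, labelled as the double knockout, lack both leptin and PPARγ2. The deletion is not restricted to islet cells by any source used here, each array holds a pool of 3 to 4 mice, and the islets were picked by hand and kept overnight in culture before extraction. The p-values therefore measure the spread between 3 pools a genotype. In such bulk samples fewer cells of a type and less RNA per cell cannot be told apart.

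Each of the 3 slides holds 1 array of every genotype and the replicate number is the slide, so differences can also be read within a slide. Before normalization, the median signal per array ran from 20.9 to 27.0 in WT, 23.0 to 30.4 in PPARγ2KO, 30.7 to 40.6 in ob/ob and 31.6 to 33.6 in POKO. Signals are given below as log2 of the processed signal after quantile normalization, and signals of different probes are not set against each other, since each probe binds with its own strength. A probe of Pparg read 8.85 to 8.98 in WT and 8.54 to 9.77 in ob/ob islets, against 6.60 to 7.44 in PPARγ2KO and 6.41 to 7.14 in POKO islets, so every array labelled as lacking PPARγ2 read below every other array, although the sources do not say whether this probe lies in the deleted part. The Lep probe was not well above background on any array and checks nothing. Beta, alpha, delta and PP cell markers were present on all arrays, except a beta cell marker well above background on only 2 of 3 PPARγ2KO arrays. Markers of acinar cells were present on all arrays too. Their 8 probes summed to 1810000 to 2190000 over the 12 arrays and did not separate the genotypes. Signals this near the top of the scale are held alike across arrays by quantile normalization, so the sum says little about acinar content.

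The start regions of 4 members are shown because their probes carry the largest differences described below, Bcl2l1, Bak1 and Bcl2l11 between ob/ob and WT and Bbc3 between PPARγ2KO and WT. Each is the 250 bases before the most upstream start of the gene in RefSeq (build GRCm38.p6), written 5′ to 3′ on the gene's strand, with capitals for the GC box GGGCGG, the forkhead motif GTAAACA and the core site AGGTCA of nuclear receptors on either strand. Bcl2l1 lies at chr2:152831729-152831978 on the minus strand, Bak1 at chr17:27028628-27028877 on the minus strand, Bbc3 at chr7:16309333-16309582 on the plus strand and Bcl2l11 at chr2:128125788-128126037 on the plus strand.
Bcl2l1: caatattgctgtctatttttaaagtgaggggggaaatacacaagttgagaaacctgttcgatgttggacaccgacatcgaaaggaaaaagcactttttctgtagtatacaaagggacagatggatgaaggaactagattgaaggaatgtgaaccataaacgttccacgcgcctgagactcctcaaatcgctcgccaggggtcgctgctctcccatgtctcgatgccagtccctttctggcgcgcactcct
Bak1: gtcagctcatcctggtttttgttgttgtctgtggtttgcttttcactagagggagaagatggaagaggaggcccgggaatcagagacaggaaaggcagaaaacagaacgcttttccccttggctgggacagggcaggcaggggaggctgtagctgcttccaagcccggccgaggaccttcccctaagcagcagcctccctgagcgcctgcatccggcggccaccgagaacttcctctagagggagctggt
Bbc3: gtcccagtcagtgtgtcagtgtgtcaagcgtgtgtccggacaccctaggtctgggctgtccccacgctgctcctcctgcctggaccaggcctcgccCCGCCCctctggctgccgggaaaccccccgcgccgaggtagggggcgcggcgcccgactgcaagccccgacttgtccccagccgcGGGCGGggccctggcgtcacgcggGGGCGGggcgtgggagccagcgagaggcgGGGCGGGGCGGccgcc
Bcl2l11: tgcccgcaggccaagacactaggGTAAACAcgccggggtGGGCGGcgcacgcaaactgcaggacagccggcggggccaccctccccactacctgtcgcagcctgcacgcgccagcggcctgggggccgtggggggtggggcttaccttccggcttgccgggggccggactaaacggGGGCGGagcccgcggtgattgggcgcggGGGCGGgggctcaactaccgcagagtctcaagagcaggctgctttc
The Bcl2l11 window holds 1 forkhead motif and 3 GC boxes, and the Bbc3 window 5 GC boxes, the last of which overlaps its neighbour. The same search found the forkhead motif in 3.17% and the GC box in 32.7% of the 32851 windows of this length in the table, and AGGTCA in 14.0%. The Bcl2l1 and Bak1 windows hold none of these letters. They also differ in composition, with 12 and 8 CG dinucleotides against 27 in Bbc3 and 24 in Bcl2l11. A DR1 element, searched as AGGTCANAGGTCA on both strands (N is any base), was found in 0.0335% of all windows and in none of the 9 member windows searched. A match of letters is a description and not a binding site.

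The comparison of ob/ob with WT islets asks how the family stands in leptin deficiency with functional PPARγ2. Probes of Bcl2l11, Bcl2l1 and Bak1 were lower in ob/ob islets, by 2.09-fold, 1.75-fold and 1.71-fold. These 3 of 16 probes fell past an adjusted p of 0.05 (limma with Benjamini-Hochberg adjustment over all probes, as in every comparison here) and 0 rose, where 6.14% of all 41174 probes fell, and 9.10% of the 20509 that were well above background on every array. With each gene read by its brightest probe alone, 0 of 10 genes passed, against 13.6% of all 17305 genes, since each of the 3 calls comes from the dimmer or dimmest probe of its gene, and at an unadjusted p under 0.05 3 of 10 genes were lower, against 20.9% of all genes. At an unadjusted p under 0.05, 8 of 16 probes were lower and 0 higher, against 18.8% of all probes lower. Without overlap between the 3 ob/ob and the 3 WT arrays, 7 of 16 probes lay below WT, against 29.9% of all probes. The median log2 fold change was -0.45 over the 16 probes and -0.08 over all probes, and 12 of the 16 member probes against 60.3% of all probes were lower. These probe counts weigh genes with several probes more. With each gene read by its brightest probe, the median was -0.24 over the 10 genes and -0.06 over all genes.

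**Figure D1:**
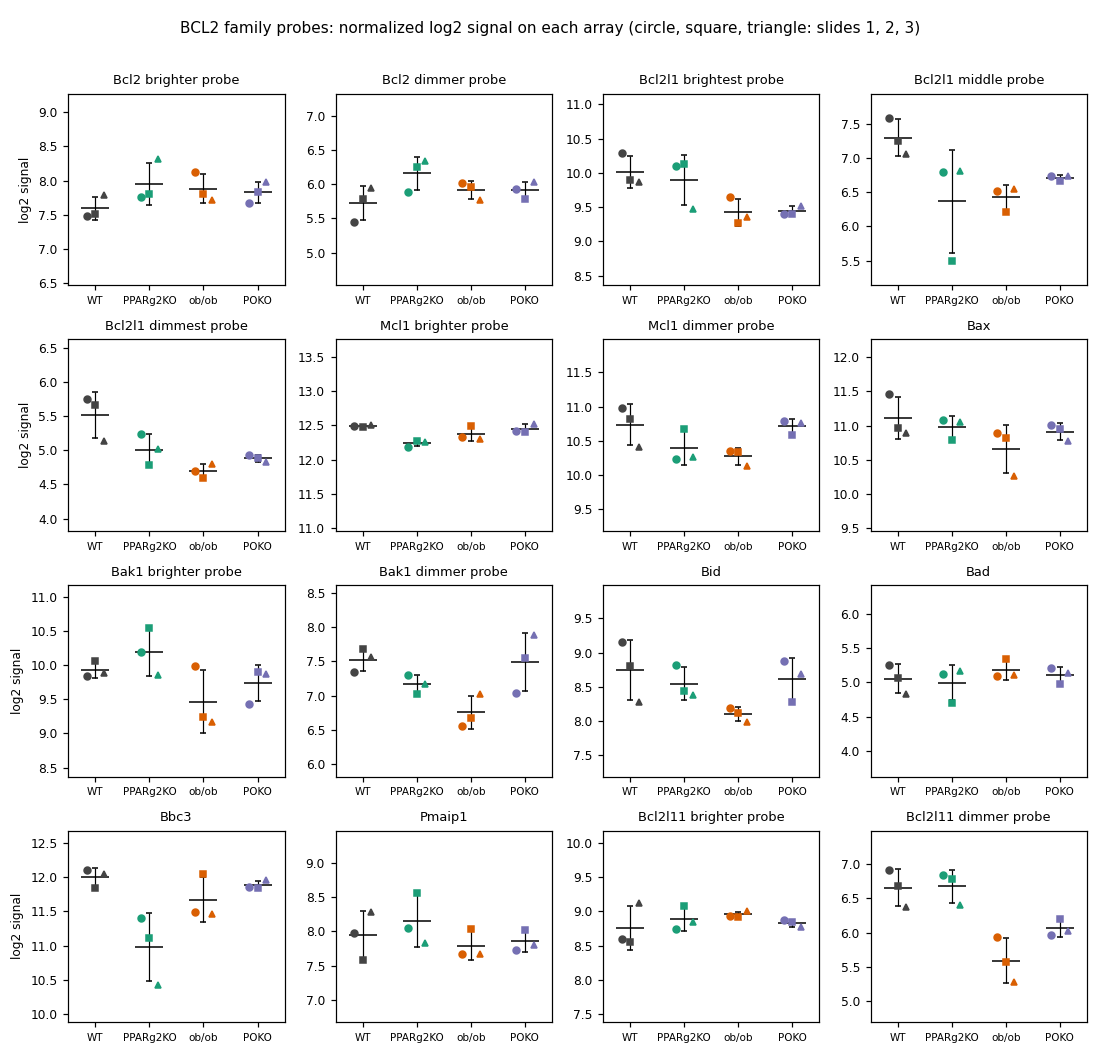
Normalized log2 signal of the 16 BCL2 family probes (vertical axes, each spanning the same width) on the 3 arrays of each genotype (horizontal axes). Points are arrays, with shape for the slide, and bars give the mean ± SD. The ob/ob points lie below all WT points for every Bcl2l1 probe, the dimmer Mcl1, Bak1 and Bcl2l11 probes and Bid, and the PPARγ2KO points lie below all others for Bbc3.

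Among the anti-apoptotic members, Bcl2l1 (NM_009743) gave the most uniform picture, with all of its probes lower in ob/ob. The brightest Bcl2l1 probe read 10.29, 9.90 and 9.87 on the WT arrays and 9.65, 9.28 and 9.35 on the ob/ob arrays, with 10.096, 10.12 and 9.48 in PPARγ2KO and 9.40, 9.39 and 9.52 in POKO islets. The dimmest Bcl2l1 probe read 5.75, 5.66 and 5.13 in WT, 4.70, 4.598 and 4.80 in ob/ob, 5.24, 4.78 and 5.01 in PPARγ2KO and 4.93, 4.88 and 4.83 in POKO islets. The middle Bcl2l1 probe read 7.59, 7.25 and 7.05 in WT, 6.51, 6.21 and 6.55 in ob/ob, 6.79, 5.49 and 6.81 in PPARγ2KO and 6.74, 6.67 and 6.73 in POKO islets. All 3 ob/ob arrays lay below all 3 WT arrays for each of these probes. The dimmest probe fell (log2 fold change of -0.81, SE 0.17, adjusted p = 0.0275), with differences of -1.04, -1.06 and -0.33 on slides 1, 2 and 3. The brightest probe, which is spotted 10 times on each array with an SD between spots of 0.03 to 0.07, gave a log2 fold change of -0.59, SE 0.19, adjusted p = 0.0716. The middle probe gave a log2 fold change of -0.87, SE 0.32, adjusted p = 0.0997. Bcl2l1 has a long, protective and a short, pro-apoptotic product, and the sources used here do not say which of them each probe reads.

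Mcl1 (NM_008562), whose protein is short-lived, had the lower mean in ob/ob for both probes. The dimmer Mcl1 probe read 10.98, 10.82 and 10.40 on the WT arrays and 10.36, 10.34 and 10.13 on the ob/ob arrays, with 10.23, 10.68 and 10.27 in PPARγ2KO and 10.78, 10.59 and 10.76 in POKO islets. This probe did not overlap between ob/ob and WT but did not pass the test (log2 fold change of -0.46, SE 0.17, adjusted p = 0.0997). The brighter probe differed less between ob/ob and WT, 12.37 ± 0.10 (SD, n = 3) against 12.49 ± 0.02, with a 95% interval of the difference from -0.29 to 0.04. Bcl2, the founding protective member, had the higher mean in ob/ob for both probes, without passing the test. Its brighter probe (NM_177410) read 7.60 ± 0.17 in WT and 7.88 ± 0.21 in ob/ob islets (SD, n = 3), and its dimmer probe (NM_009741) 5.73 ± 0.25 and 5.92 ± 0.13. Both intervals of the Bcl2 difference include 0, from -0.11 to 0.68 and from -0.16 to 0.55.

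Of the effectors, Bak1 (NM_007523), which sits in the outer mitochondrial membrane, fell for 1 of its 2 probes. The dimmer Bak1 probe read 7.34, 7.68 and 7.56 on the WT arrays and 6.56, 6.68 and 7.03 on the ob/ob arrays, with 7.30, 7.02 and 7.17 in PPARγ2KO and 7.04, 7.55 and 7.89 in POKO islets. The ob/ob arrays were the lowest of each slide and lay below every WT array (log2 fold change of -0.77, SE 0.21, adjusted p = 0.0478, slide differences -0.78, -1.001 and -0.53). The brighter Bak1 probe read 9.84, 10.06 and 9.88 on the WT arrays and 9.99, 9.23 and 9.17 on the ob/ob arrays, with 10.19, 10.54 and 9.85 in PPARγ2KO and 9.43, 9.90 and 9.87 in POKO islets. Here ob/ob replicate 1 lay within the WT range and the other ob/ob arrays below it (log2 fold change of -0.47, SE 0.25, adjusted p = 0.238). Bax (NM_007527), the effector that moves from the cytosol to the mitochondria, is spotted 10 times with an SD between spots of 0.04 to 0.06. Bax read 11.46, 10.97 and 10.89 on the WT arrays and 10.89, 10.82 and 10.26 on the ob/ob arrays, with 11.09, 10.79 and 11.05 in PPARγ2KO and 11.01, 10.95 and 10.78 in POKO islets. The Bax groups overlapped, and the difference did not pass the test (log2 fold change of -0.45, SE 0.20, adjusted p = 0.161), although all 3 slides had the lower value in ob/ob.

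The BH3-only member with the largest difference was Bcl2l11 (NM_207680), which encodes BIM, a direct activator of the effectors. The dimmer Bcl2l11 probe read 6.91, 6.68 and 6.37 on the WT arrays and 5.93, 5.56 and 5.27 on the ob/ob arrays, with 6.84, 6.79 and 6.40 in PPARγ2KO and 5.97, 6.19 and 6.02 in POKO islets. All 3 ob/ob arrays were below all WT arrays, and the 3 slides gave nearly equal differences of -0.97, -1.12 and -1.102 (log2 fold change of -1.06, SE 0.20, adjusted p = 0.0236). The brighter one, which carries the same accession, did not show this. The brighter Bcl2l11 probe read 8.60, 8.54 and 9.12 on the WT arrays and 8.94, 8.92 and 9.001 on the ob/ob arrays, with 8.74, 9.07 and 8.84 in PPARγ2KO and 8.87, 8.84 and 8.77 in POKO islets. Its groups overlapped and its difference had the opposite sign (log2 fold change of 0.20, SE 0.15, adjusted p = 0.391). Which transcripts of Bcl2l11 each probe reads is not given in the sources used here, so the fall is given for 1 probe and not for the gene.

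Bid (NM_007544), which caspase 8 cleaves to link death receptors to mitochondria, was lower in ob/ob without passing the test. Bid read 9.16, 8.80 and 8.28 on the WT arrays and 8.19, 8.12 and 7.99 on the ob/ob arrays, with 8.82, 8.43 and 8.38 in PPARγ2KO and 8.88, 8.28 and 8.69 in POKO islets. The ob/ob values were close together and just below the lowest WT array (log2 fold change of -0.65, SE 0.23, adjusted p = 0.097). Bbc3 (NM_133234), the p53 target PUMA, read 11.996 ± 0.14 in WT and 11.67 ± 0.33 in ob/ob islets (SD, n = 3), with a 95% interval of the difference from -0.86 to 0.22. Pmaip1 (NM_021451), which binds MCL1, read 7.95 ± 0.35 and 7.79 ± 0.21, with an interval from -0.66 to 0.35. Bad (NM_007522), which survival signals phosphorylate, read 5.05 ± 0.21 and 5.18 ± 0.14, with an interval from -0.22 to 0.47.

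**Figure D2:**
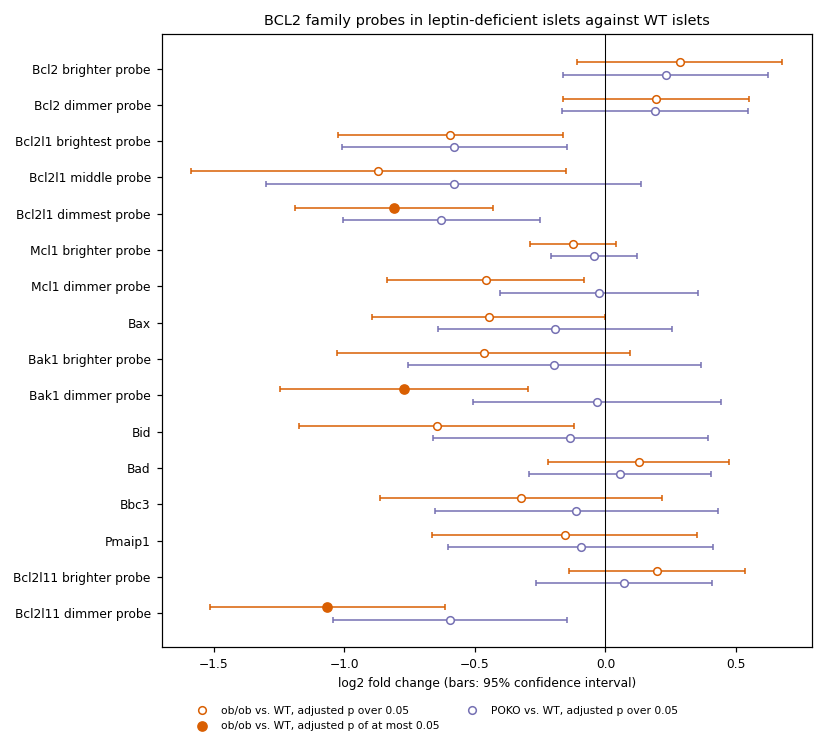
Log2 fold change of each BCL2 family probe (rows) in POKO vs. WT and in ob/ob vs. WT islets, with 95% confidence intervals from limma, so that both comparisons share the WT arrays. Filled points passed an adjusted p of 0.05, 3 of them in ob/ob vs. WT (POKO vs. WT had 0).

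The count of 3 rests on few arrays. It was 0 of 16 without WT replicate 1, WT replicate 2, ob/ob replicate 2 or ob/ob replicate 3, and the calls over all probes ran from 173 to 8460 over the refits that leave out 1 array. Without WT replicate 3, when 20.5% of all probes passed, 5 of 16 member probes did, 4 lower and 1 higher in ob/ob. The higher one was the brighter Bcl2l11 probe (log2 fold change of 0.38, adjusted p = 0.0359), opposite to the dimmer one. The count of genes by their brightest probe was then 2 of 10, Bid lower (-0.88, adjusted p = 0.0228) and Bcl2l11 higher. It was 1 of 10, Bcl2l1 lower, without PPARγ2KO replicate 3, and 3 of 10, all lower, with array weights or with the average over a gene's probes. Calls over all probes were 4747 without PPARγ2KO replicate 3 and 13481 (32.7%) with array weights. With the average over a gene's probes there were 3633 calls over all genes and unnamed probes. The dimmer Bak1 probe passed in only 2 of the 12 refits that leave out 1 array, those without POKO replicate 1 or 3, with adjusted p of 0.055 to 0.148 in the others. The count of probes was 0 in a fit on the 6 arrays compared, 1 with a shift to the 75th percentile and 8 with array weights, against 32.7% of all probes with those weights. Normexp correction, whose offset presses dim probes together, left the calls of the dimmer Bcl2l11 probe (-0.26) and the dimmest Bcl2l1 probe (-0.14), and the dimmer Bak1 probe did not pass (-0.36, adjusted p = 0.0695).

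Markers of other cells moved in the same comparison, where 6.48% of all genes rose and 7.13% fell by their brightest probes. T cell markers rose for 6 of 8 measured genes, among them Cd3d, Cd3g and Cd8a, with Cd4 (log2 fold change -0.11) and Cd3e (-1.48) not passing the test. Their summed signal was 449 to 471 in WT, 288 to 1530 in PPARγ2KO, 1100 to 2890 in ob/ob and 648 to 2020 in POKO islets. Most of the WT sum is the Cd3e probe (8.22 ± 0.13 on the log2 scale, SD), which had the opposite sign. Cd3d read 2.43 ± 1.95 (SD) in WT and was well above background on 1 of 3 WT arrays, so its rise is taken against a value near the floor. B cell markers rose for 4 of 6, among them Cd79b, Ms4a1 and Blk, with a summed signal of 87.3 to 106 in WT, 62.9 to 2810 in PPARγ2KO, 1250 to 3810 in ob/ob and 1150 to 3470 in POKO islets. The high PPARγ2KO values of both lists are those of replicate 2. Duct markers fell for 3 of 6 genes, Krt19, Sox9 and Cftr, while Krt7 had the opposite sign without passing (0.55 on the log2 scale, adjusted p = 0.153). The sum of the 5 measured on every array, most of it Krt19, was 61300 to 78400 in WT, 52900 to 69500 in PPARγ2KO, 21300 to 38000 in ob/ob and 33200 to 45400 in POKO islets. Macrophage markers rose for 1 of 7, endothelial ones for 1 of 5 and beta cell ones for 1 of 7, and acinar markers for 0 of 8. The part of these cells in the BCL2 family values was not tested.

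**Figure D3:**
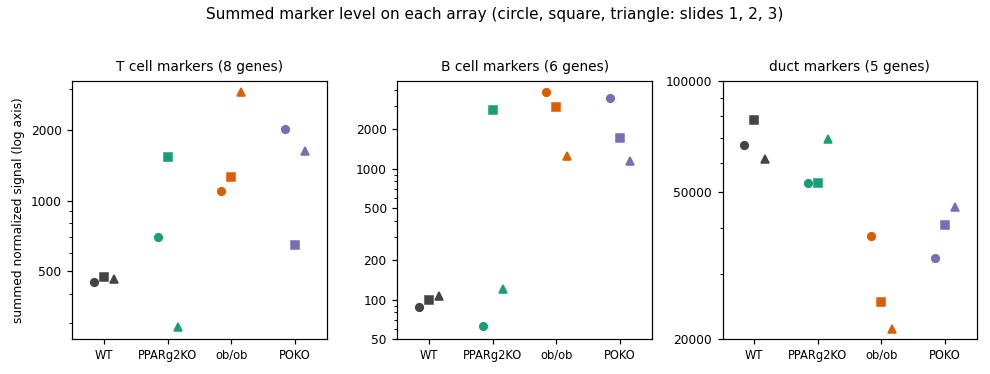
Summed normalized signal (log axes) of the T cell, B cell and duct markers measured on all arrays, for each array of the 4 genotypes, with shape for the slide. All ob/ob arrays lie above all WT arrays for T and B cell markers and below them for duct markers.

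POKO vs. WT asks how the family stands in leptin deficiency without PPARγ2, and shares its WT arrays with the comparison above. No member probe passed the test, 0 of 16 against 0.194% of all probes in limma, and 3 of 16 were lower at an unadjusted p under 0.05, against 9.52% of all probes lower. With each gene read by its brightest probe, 1 of 10 genes had an unadjusted p under 0.05, against 17.2% of all genes. Below WT without overlap lay 4 of 16 probes, against 25.6% of all probes, and these were the 3 Bcl2l1 probes and the dimmer Bcl2l11 probe. The Bcl2l1 probes gave -0.58 ± 0.19 (SE, adjusted p = 0.182), -0.58 ± 0.32 (SE, adjusted p = 0.407) and -0.63 ± 0.17 (SE, adjusted p = 0.123), from the brightest to the dimmest. The POKO arrays were close to each other for all of these, with an SD of 0.07, 0.04 and 0.05. The dimmer Bcl2l11 probe gave -0.60 ± 0.20 (SE, adjusted p = 0.187), and the brighter one 0.07 ± 0.15 (SE, adjusted p = 0.841). All Bak1 and Mcl1 probes overlapped between POKO and WT. Intervals of the difference ran from -0.51 to 0.44 for the dimmer Bak1 probe and from -0.40 to 0.35 for the dimmer Mcl1 probe. The brighter Bak1 probe gave -0.20 ± 0.25 (SE, adjusted p = 0.714), with the lower value in POKO on every slide. The brighter Mcl1 probe gave -0.045 ± 0.073 (SE, adjusted p = 0.784). Without WT replicate 3, 1 of 16 probes passed, the dimmest Bcl2l1 probe (log2 fold change -0.82, adjusted p = 0.0387).

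POKO vs. ob/ob compares islets of leptin-deficient mice without and with PPARγ2. In limma 0 of 16 probes passed, against 0.00486% of all probes, and 3 of 16 were higher at an unadjusted p under 0.05, against 4.91% of all probes higher. None of these 3 is the brightest probe of its gene. Read by the brightest probe, 0 of 10 genes had an unadjusted p under 0.05, against 11.8% of all genes. Without overlap, 6 of 16 probes lay above ob/ob, against 8.77% of all probes. They were the dimmer Bak1 probe (0.74 ± 0.21, SE, adjusted p = 0.531), Bid (0.51 ± 0.23, SE, adjusted p = 0.536), the dimmer Bcl2l11 probe (0.47 ± 0.20, SE, adjusted p = 0.532), the dimmer Mcl1 probe (0.43 ± 0.17, SE, adjusted p = 0.531) and the middle and dimmest Bcl2l1 probes (0.29 ± 0.32, SE, adjusted p = 0.844, and 0.18 ± 0.17, SE, adjusted p = 0.779). For the dimmer Bak1 probe, the POKO value on slide 1 was only just above the highest ob/ob array (7.04 against 7.03), and those on slides 2 and 3 were well above it. The brighter Bak1 probe overlapped between POKO and ob/ob (0.27 ± 0.25, SE, adjusted p = 0.777). Its difference on slide 1 had the opposite sign (-0.56). The brighter Bcl2l11 probe lay below ob/ob without overlap, by a log2 difference of -0.13. With array weights, 3 of 16 probes passed, against 13.1% of all probes.

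PPARγ2KO vs. WT asks what the deletion does in lean mice. In limma 0 of 16 member probes passed, against 0% of all probes, and 5 of 16 had an unadjusted p under 0.05, against 9.37% of all probes. Of the genes by their brightest probe, 2 of 10 did, against 8.83% of all genes. The largest difference of the family was in Bbc3, which encodes PUMA, a BH3-only protein that binds all protective members. Bbc3 read 12.11, 11.84 and 12.04 on the WT arrays and 11.50, 12.05 and 11.47 on the ob/ob arrays, with 11.40, 11.11 and 10.43 in PPARγ2KO and 11.86, 11.85 and 11.95 in POKO islets. The 3 PPARγ2KO arrays were the lowest of the 12, and replicate 3 was the lowest of these. The test gave a log2 fold change of -1.02, SE 0.24, adjusted p = 0.381, with -0.71, -0.73 and -1.62 on the slides, and without PPARγ2KO replicate 3 it was -0.74 (adjusted p = 0.159). The other 4 probes were the brighter Mcl1 probe, the middle and dimmest Bcl2l1 probes and the dimmer Bcl2 probe. The brighter Mcl1 probe was lower by little but evenly, 12.24 ± 0.04 (SD, n = 3) against 12.49 ± 0.02 in WT (-0.25 ± 0.07, SE, adjusted p = 0.457). The middle Bcl2l1 probe gave -0.93 ± 0.32 (SE, adjusted p = 0.485), with PPARγ2KO replicate 2 at 5.49 and the others at 6.79 and 6.81, and the dimmest one gave -0.50 ± 0.17 (SE, adjusted p = 0.483). The dimmer Bcl2 probe was the only one of the 5 that was higher (0.43 ± 0.16, SE, adjusted p = 0.496).

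**Figure D4:**
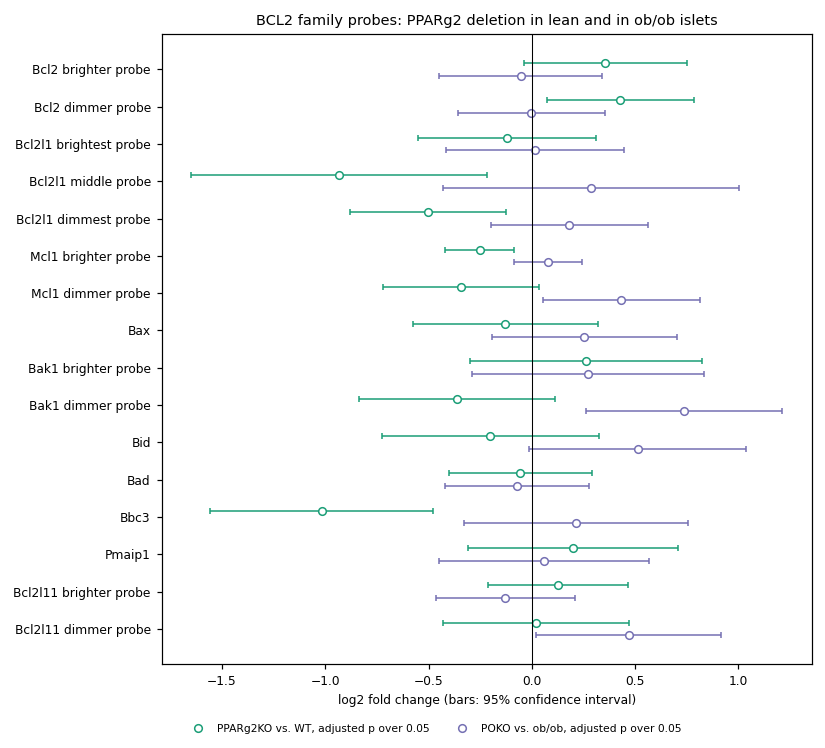
Log2 fold change of each BCL2 family probe (rows) between islets without and with PPARγ2, in lean mice (PPARg2KO vs. WT) and in leptin-deficient mice (POKO vs. ob/ob), with 95% confidence intervals from limma. None of the points passed an adjusted p of 0.05, and the pairs lie farthest apart for Bbc3, the middle Bcl2l1 probe (an interaction of 1.22, or 0.78 without PPARγ2KO replicate 2) and the dimmer Bak1 probe.

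Whether the loss of PPARγ2 acted differently in lean and in leptin-deficient mice was tested by the interaction, the difference of POKO vs. ob/ob minus that of PPARγ2KO vs. WT. In limma 0 of 16 probes passed, against 0% of all probes (the smallest adjusted p of all probes was 0.118), and 6 of 16 had an unadjusted p under 0.05, all of them above 0, against 7.53% of all probes above 0. The 6 include several probes of the same gene. By the brightest probe, 2 of 10 genes had an unadjusted p under 0.05, against 16.1% of all genes. Bbc3 gave 1.23 ± 0.34 (SE, adjusted p = 0.266), the middle Bcl2l1 probe 1.22 ± 0.45 (SE, adjusted p = 0.3) and the dimmer Bak1 probe 1.1 ± 0.30 (SE, adjusted p = 0.265). Without PPARγ2KO replicate 2, the low array of the middle Bcl2l1 probe, its interaction was 0.78 (adjusted p = 0.312). Both Mcl1 probes were among the 6, the dimmer with 0.78 ± 0.24 (SE, adjusted p = 0.274) and the brighter with 0.33 ± 0.10 (SE, adjusted p = 0.274), and so was the dimmest Bcl2l1 probe (0.68 ± 0.24, SE, adjusted p = 0.29). The sign of all 6 was the same on each of the 3 slides. For the dimmer Bcl2l11 probe the interval of the interaction ran from -0.19 to 1.08. None of the 16 probes passed this test of the difference between lean and leptin-deficient mice after adjustment.

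**Figure D5:**
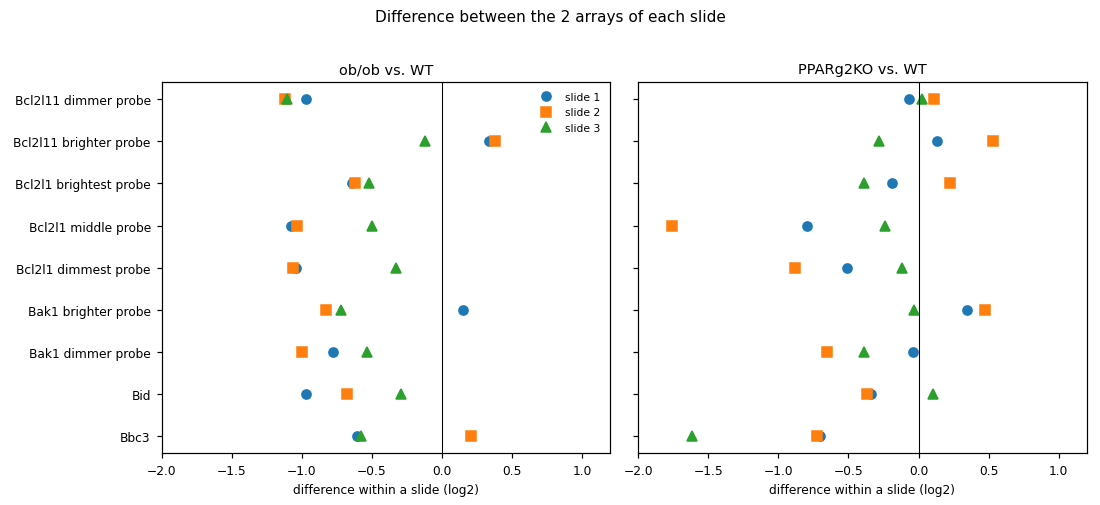
Difference in log2 signal between the 2 arrays of the same slide, ob/ob minus WT (left) and PPARγ2KO minus WT (right), for 9 BCL2 family probes (rows), with 1 point a slide. The dimmer Bcl2l11 probe lies near -1 on all slides in ob/ob and near 0 in PPARγ2KO, and Bbc3 is below 0 on all slides in PPARγ2KO.

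The remaining comparisons set both leptin-deficient genotypes against PPARγ2KO. In ob/ob vs. PPARγ2KO, 0 of 16 probes passed in limma, against 0.00486% of all probes, and 4 of 16 had an unadjusted p under 0.05, against 19.3% of all probes. Of the genes by their brightest probe, 3 of 10 did, against 25.1% of all genes. The dimmer Bcl2l11 probe, lower in ob/ob without overlap, gave -1.09 ± 0.20 (SE, adjusted p = 0.0802), the brighter Bak1 probe -0.73 ± 0.25 (SE, adjusted p = 0.165), the brightest Bcl2l1 probe -0.47 ± 0.19 (SE, adjusted p = 0.22) and Bbc3 0.69 ± 0.24 (SE, adjusted p = 0.169). In 4 refits the dimmer Bcl2l11 probe passed, with only the probes above background kept (adjusted p = 0.0462), with array weights (0.0203), without PPARγ2KO replicate 3 (0.0294) and without ob/ob replicate 1 (0.0171). In POKO vs. PPARγ2KO, 0 of 16 passed, against 0.00971% of all probes, and 4 of 16 had an unadjusted p under 0.05, against 11.1% of all probes. Of the genes by their brightest probe, 3 of 10 did, against 12.9% of all genes. Bbc3 was higher in POKO without overlap (0.91 ± 0.24, SE, adjusted p = 0.264), as was the brighter Mcl1 probe (0.21 ± 0.07, SE, adjusted p = 0.362). The dimmer Bcl2l11 probe was lower without overlap (-0.62 ± 0.20, SE, adjusted p = 0.329), and the brightest Bcl2l1 probe gave -0.46 ± 0.19 (SE, adjusted p = 0.43).

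Ordered by their means, ob/ob was the lowest genotype for 9 of the 16 probes, PPARγ2KO for 4 and WT for 3. The 9 include several probes of the same gene, and the same count over all probes was not made. Of all probes, 60.3% were lower in ob/ob than in WT and 58.0% lower in ob/ob than in PPARγ2KO, and 45.9% were lower in POKO than in ob/ob. The dimmer Mcl1 and Bak1 probes and Bid shared the order ob/ob, PPARγ2KO, POKO and WT, and the brightest and dimmest Bcl2l1 probes and Bax the order ob/ob, POKO, PPARγ2KO and WT. The dimmer Bcl2l11 probe ran from ob/ob (5.59 ± 0.33, SD, n = 3) over POKO (6.06 ± 0.12) to WT (6.66 ± 0.27) and PPARγ2KO (6.68 ± 0.24), and the last 2 differed by less than their spread. For Bbc3 the order was PPARγ2KO (10.98 ± 0.50), ob/ob (11.67 ± 0.33), POKO (11.88 ± 0.06) and WT (11.996 ± 0.14), and ob/ob, POKO and WT overlapped. The brightest Bcl2l1 probe placed ob/ob (9.42 ± 0.20) and POKO (9.44 ± 0.07) together below PPARγ2KO (9.90 ± 0.37) and WT (10.02 ± 0.23), with PPARγ2KO overlapping all of the others. Bad and Pmaip1 had no genotype apart from the others, with group means of 4.997 to 5.18 and 7.79 to 8.15.

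Other genes of the pathway were read from lists that name no member, by their brightest probes, in ob/ob vs. WT. Over the 6 lists 9 of 73 measured genes passed, or 12.3%, against the 13.6% of all genes. At an unadjusted p under 0.05 in limma the count was 34 (46.6%, against 37% of all genes). Of 13 measured BCL2 homologs outside the 10 members, 3 rose and 0 fell. These were Bnip3, a hypoxia-induced mitophagy receptor (1.5 ± 0.37, adjusted p = 0.0375), and the copies Bcl2a1b (2.15 ± 0.50, adjusted p = 0.0332) and Bcl2a1c (2.13 ± 0.45, adjusted p = 0.0282) of the protective, blood-cell gene Bcl2a1, whose near-identical sequences a probe may not tell apart. Bcl2a1c was well above background on 0 of 3 WT arrays (3.07 ± 0.31, SD) and 2 of 3 PPARγ2KO arrays. It was kept only through ob/ob and POKO, and its fold change is taken against a WT value near the floor. A dimmer probe of Bcl2l14 also rose (0.68, adjusted p = 0.0469), and its brightest probe did not pass (0.70, adjusted p = 0.0875). Bcl2a1b read 7.25 ± 0.25 in WT, 7.83 ± 1.19 in PPARγ2KO, 9.39 ± 0.47 in ob/ob and 9.68 ± 0.08 in POKO islets (SD, n = 3), and the part of the T and B cell markers given above in this rise was not tested. Bcl2l2, which encodes the protective BCL-W, gave 0.61 ± 0.17, adjusted p = 0.0514.

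Of 15 genes of the apoptosome and the caspases, 0 passed in limma, and 1 was higher and 4 lower at an unadjusted p under 0.05, where 16.1% of all genes were higher and 20.9% lower. Among the lowest p in this list were those of Endog, a mitochondrial nuclease (0.64 ± 0.18, adjusted p = 0.052), Aifm1 (-0.38 ± 0.14, adjusted p = 0.0983) and the initiator Casp9 (-0.24 ± 0.10, adjusted p = 0.143). Of 11 inhibitor of apoptosis proteins (IAPs) and their antagonists, 2 rose and 0 fell by their brightest probes. The risen ones were Birc3, an NF-κB target and ubiquitin ligase (0.97 ± 0.13, adjusted p = 0.0126), and Naip2, a sensor of bacterial proteins (0.91 ± 0.15, adjusted p = 0.0181). Birc5, the mitotic protein survivin, gave 0.73 ± 0.23, adjusted p = 0.0667, and Htra2, a mitochondrial protease that relieves IAPs, gave -0.94 ± 0.28, adjusted p = 0.0582. A dimmer probe of Xiap, an inhibitor of caspases, fell (log2 fold change of -0.58, adjusted p = 0.0253), and its brightest probe gave -0.52 (adjusted p = 0.176).

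Of 15 regulators of BH3-only genes, 1 rose and 1 fell. Foxo1, a forkhead factor held back by insulin signalling and known to act on Bcl2l11, rose (0.76 ± 0.19, adjusted p = 0.0375), and its other probe gave 0.56 (adjusted p = 0.0470). Trp73, a relative of p53 known to act on Bbc3, fell (-1.37 ± 0.30, adjusted p = 0.0299). Its other probe gave -1.14 (adjusted p = 0.371), with a mean log2 signal of 1.63, near the floor. Ddit3, the stress factor CHOP, gave 1.38 ± 0.47, adjusted p = 0.086, and the kinase gene Pim1 0.93 ± 0.27, adjusted p = 0.0563. Of 12 p53 target genes 0 rose and 1 fell, the membrane protein gene Perp (-1.17 ± 0.23, adjusted p = 0.0262). At an unadjusted p under 0.05, 1 of 12 was higher, against 16.1% of all genes, and 6 of 12 were lower, against 20.9%. Trp53inp1 gave -0.66 ± 0.20, adjusted p = 0.0665, the cell cycle inhibitor Cdkn1a -0.45 ± 0.15, adjusted p = 0.0736 and the death receptor gene Fas 0.46 ± 0.14, adjusted p = 0.0582.

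Of 7 genes for the turnover of the MCL1 protein, 1 rose, Cdc20, an activator of the anaphase promoting complex (0.78 ± 0.21, adjusted p = 0.0481), and 0 fell. The kinase genes Gsk3b and Gsk3a, whose products mark MCL1 for destruction, gave -0.34 ± 0.18, adjusted p = 0.219 and -0.34 ± 0.34, adjusted p = 0.522, and the deubiquitinase gene Usp9x gave 0.19 ± 0.15, adjusted p = 0.421. In each of the other comparisons and in the interaction limma called 0 of the 73 genes, and the counts at an unadjusted p under 0.05 lay near the shares of all genes. They were 16 in POKO vs. WT (21.9%, against 17.2% of all genes), 8 in POKO vs. ob/ob (11.0%, against 11.8%) and 6 in PPARγ2KO vs. WT (8.22%, against 8.83%). The counts were 18 in ob/ob vs. PPARγ2KO (24.7%, against 25.1%), 9 in POKO vs. PPARγ2KO (12.3%, against 12.9%) and 12 in the interaction (16.4%, against 16.1%).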

How the data were processed

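Islet RNA was labelled with Cy3 and hybridised to 12 arrays, 3 per genotype, grouped by the labels. The deposited scanner output holds, per the file headers, spot intensities from Agilent Feature Extraction 10.1.1.1 (build mm9), where the processed signal is an intensity after background subtraction without normalization between arrays. The authors also deposited a table of normalized values on a log2 scale, which correlated at 0.9997 with the values computed here on each array and had medians of 4.89 to 4.91 per array against 4.77 to 4.80 here, and its scale is taken from this match. Precision is limited by how many arrays there are.

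Of 45018 spots per array, 1639 controls were left out. The processed signal of the other spots was quantile normalized across the 12 arrays and log2 transformed. The 919 spots that Feature Extraction marked as outliers, 12 of them among the 516 member spots, were left out before averaging over each probe's spots. No spot was saturated. Probes were named by RefSeq accession through the RefSeq gene table (25097 of 41174 probes). A limma fit (limma 3.58.1, R 4.3.3) with genotype as the only factor gave 6 comparisons and the interaction, with Benjamini-Hochberg adjustment over the 41174 probes, and a probe passed at an adjusted p of at most 0.05 with no fold limit. The methods name the array as a block, which could not be fitted since every array holds 1 sample. The methods also mention a smaller group without naming it, and all 12 arrays were used. A check on simulated data with independent errors asked only that estimated fold changes be near the true ones. It set no limit on false calls.

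All 10 members are named with every probe. Of each other pathway list up to 4 genes are named, those with the lowest unadjusted p in ob/ob vs. WT among genes well above background on all arrays of at least 1 genotype, plus up to 3 that passed in another comparison (0 did), and cell type markers only where they define a list. Xiap, Bcl2l14 and Krt7 were named after their values were seen. A pathway gene and a marker that these rules would name are not reported here. Where a gene has several probes, the brightest on average over the 12 arrays stood for it. The members and lists were chosen with earlier results of these data known. The alternatives were a shift to the 75th percentile, normexp with an offset of 50, a filter on dim probes, outlier spots kept, a fit restricted to both groups, a replicate block, array weights, the deposited normalized values, the average over a gene's probes, a fold limit of 1 on the log2 scale, and each array left out. Normexp used the median spot signal because the files hold no mean signal. The counts over single probes were added after results were seen. Samples with the same replicate number share a slide and a scan, which comes from the file headers, and the correlation of their deviations from the genotype means ran from -0.13 to 0.18 (median 0.03, 18 pairs), against -0.18 to 0.16 between slides (36 pairs).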

Additional observations from a re-analysis of the deposited data

How the results depend on the processing

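With array weights, the genes called by their brightest probe were 3 in ob/ob vs. WT, 1 in POKO vs. WT and 3 in ob/ob vs. PPARγ2KO, against 0 in each, and the probes called were 8 in ob/ob vs. WT (3 without weights), 3 in POKO vs. WT, 3 in POKO vs. ob/ob and 4 in ob/ob vs. PPARγ2KO, while the calls over all 41174 probes were 13481 (4555 without weights), 4051, 5388 and 4123 in these comparisons. The weights gave ob/ob replicate 2 a weight of 3.75 and WT replicate 3 one of 0.423. The average over a gene's probes gave 3 genes in ob/ob vs. WT, with 3633 calls over all genes and unnamed probes. The probes called there were 1 with a shift to the 75th percentile, which moved the median of all probes by -0.11, 0 in a fit on the groups compared (564 over all probes), and 1 with a fold limit. The filter on dim probes, which kept 24297, gave 1 probe in ob/ob vs. PPARγ2KO. With 1 array left out, the genes called were 0 to 2 in ob/ob vs. WT, where Bcl2l11 by its brighter probe passed as higher without WT replicate 3, and 0 to 1 in ob/ob vs. PPARγ2KO, and the probes called 0 to 5 in ob/ob vs. WT, 0 to 1 in POKO vs. WT and 0 to 2 in ob/ob vs. PPARγ2KO. The cause of these moves was not tested.

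With the replicate number as a block, the counts were again 0 genes and 3 probes in ob/ob vs. WT and 0 in every other comparison, and the block changed no call. The adjusted p values of the dimmer Bcl2l11, dimmest Bcl2l1 and dimmer Bak1 probes were then 0.0221, 0.0315 and 0.0418. Of 2294 recomputed single values, 9 reversed, all in results that had not passed. A change of sign was counted only if the value passed in either fit or moved by at least the probe's SD within genotypes. Smaller changes of sign were left out of this count. For example, the brightest Bcl2l1 probe in PPARγ2KO vs. WT (-0.119) ran from -0.518 to 0.092. The mean of both Bcl2l11 probes gave -0.43 in ob/ob vs. WT (adjusted p = 0.0375), -0.26 in POKO vs. WT, 0.17 in POKO vs. ob/ob, -0.51 in ob/ob vs. PPARγ2KO and 0.10 in the interaction. With 1 array left out, the middle Bcl2l1 probe gave -0.375 to 0.286 in ob/ob vs. PPARγ2KO and -0.088 to 0.574 in POKO vs. PPARγ2KO, both lowest without PPARγ2KO replicate 2. The shift to the 75th percentile gave -0.12 for the brighter Mcl1 probe in ob/ob vs. PPARγ2KO, and array weights gave 0.15 for Pmaip1 in ob/ob vs. WT.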
